A study of Mus musculus with 2 samples.

Results

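The 9 genes described here belong to the TNF superfamily of ligands and receptors. They are 4 ligand genes, Tnf (TNF), Tnfsf10 (TRAIL), Tnfsf12 (TWEAK) and Tnfsf9 (4-1BB ligand), and 5 receptor genes, Tnfrsf1a (TNF receptor 1), Tnfrsf1b (TNF receptor 2), Tnfrsf10b (the TRAIL receptor), Tnfrsf12a (Fn14, the TWEAK receptor) and Fas. They were taken by name from a table of 19169 genes, and all 9 had reads in both libraries. For each gene the question was which cell types of the injured muscle carried it, and at what level in the wild-type and the GSDME-knockout library.

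The ligands of this family are made as trimers, on the cell surface or cut free from it, and act on receptors of neighbouring cells. TNF receptor 1, Fas and the TRAIL receptor have a cytoplasmic death domain, through which they can start caspase-8 activation or, for TNF receptor 1, mostly NF-kB signalling. TNF receptor 2 and Fn14 have no death domain and recruit TRAF proteins instead, and Fn14 is known in muscle as a receptor of satellite cells and of injured or denervated fibres. GSDME, the gasdermin deleted in the knockout, is a substrate of caspase-3, a caspase that death receptors can activate.

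Gastrocnemius muscle of male mice was injured with cardiotoxin (CTX, a venom toxin that kills fibres and spares satellite cells) and dissociated at day 14. The 2 groups were WT mice, of the C57BL/6J background, and mice with a global Gsdme knockout, and the muscle of both was injured. The methods give 5 mice per genotype without saying whether they were pooled. Each genotype had 1 library, so a value has no replicate and no test was run. The WT-labelled library had 6354 cells with a median of 5740 UMIs (unique molecular identifiers, each standing for 1 captured RNA molecule) and 44758518 in all, and the KO-labelled library 7078 cells with a median of 5963 UMIs and 50930010 in all. Libraries are called by their labels because Gsdme did not check them. Gsdme had 225 UMIs in the WT-labelled and 237 in the KO-labelled library, with a log2 KO-to-WT ratio (log2 KO/WT) of -0.11 (95% interval, -0.38 to 0.16), and where the deletion lies against the captured 5′ end was not examined.

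Cells were grouped into 15 marker-defined types that each had at least 20 cells in both libraries, and types carry the suffix "-like". The largest were fibro-adipogenic progenitor (FAP)-like cells (1863 WT-labelled and 2345 KO-labelled), endothelial-like cells (1105 and 1105), macrophage-like cells (813 and 977), tenocyte-like cells (418 and 376) and muscle stem cell (MuSC)-like cells (248 and 246). Mature muscle-like cells numbered 33 and 63. Clusters whose markers fitted no single type stayed unnamed, among them one led by Rgs5 that carried pericyte and endothelial markers together. Among the smaller types, some names hold less firmly. Smooth muscle-like cells were led by Acta2, Myh11 and Tagln but also by the pericyte genes Abcc9 and Kcnj8, and their summed pericyte markers stood at 18850 and 22101 CPM (WT-labelled library first, as in all pairs of values) against 7802 and 5590 CPM of smooth muscle markers. Their red-cell markers were at 120 and 18255 CPM. In the main types these markers stood at 1297 and 4912 CPM in endothelial-like and 63.1 and 531 CPM in FAP-like cells. They were at 345 and 562 CPM in macrophage-like and 28.5 and 34.3 CPM in MuSC-like cells, and their part in the ratios was not tested. Neutrophil-like cells (26 and 33) had 4205 and 24910 CPM of neutrophil markers and 5801 and 718 CPM of FAP markers. Mast-like cells (41 and 55) were led by Mcpt4 and Cma1 together with Il5, Il13 and Gata3, genes known from type-2 lymphoid cells, and had 21482 and 8641 CPM of mast markers. Of the larger types, MuSC-like cells had 886 and 1372 CPM of MuSC markers, beside 4385 and 3678 CPM of FAP markers. The part of these marker differences in the ratios of MuSC-like cells was not tested. A level is the gene's summed UMIs in a type and library per 1000000 UMIs (CPM), with an exact Poisson 95% interval, and each ratio has an exact binomial one. Both intervals cover counting error only, not the spread between mice. A gene was called past the fold where the ratio was at least 1.5-fold and the gene had at least 50 UMIs over both libraries. The 4 barcodes present in both libraries were kept.

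Heat-shock and immediate-early genes, which respond to tissue dissociation, differed between the libraries and run beside several results. Their summed level over 16 genes was 18715 and 26760 CPM in FAP-like cells, 16934 and 28216 CPM in MuSC-like cells, 33845 and 41055 CPM in endothelial-like cells, and 29566 and 30780 CPM in macrophage-like cells. Hspa1b, which encodes a heat-shock protein, stood at 476 and 1877 CPM in FAP-like cells. In macrophage-like cells the sum joins genes that went opposite ways. The heat-shock genes Hspa1b and Dnajb1 stood there at 3143 and 4993 CPM and at 312 and 609 CPM. The immediate-early genes Jun and Fosb stood there at 1712 and 1095 CPM and at 1314 and 817 CPM. The part of heat-shock and immediate-early genes in the ratios was not tested.

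For 3 members a stretch of 30 bases from before the RefSeq transcription start is shown, because it holds a motif that was searched for. The search covered both strands of the 250 bases before the start in GRCm38.p6, for an AP-1 motif (TGANTCA, with N for any base), a TATA box (TATAAA), an NF-kB motif and an interferon response motif (GAAA, any 2 bases, then GAAA). RefSeq promoters were found for 6 members (Tnf, Tnfsf10, Tnfrsf1a, Tnfrsf1b, Tnfrsf12a and Fas). Capitals mark the match, and each sequence is written 5′ to 3′ on the strand of its gene.
Fas, AP-1 motif, chr19:34290437-34290466, plus strand: ctgtgcagtggTGAGTCAgtgggtttcccc
Tnf, TATA box, chr17:35202019-35202048, minus strand: ttccccaagggcTATAAAggcggccgtctg
Tnfrsf1b, interferon response motif on the opposite strand, chr4:145246871-145246900, minus strand: cctagctcctggcctgagggTTTCGCTTTC
Of 32817 promoters, 6.75% held the AP-1 motif, 12.4% the TATA box, 2.97% the interferon response motif and 4.11% the NF-kB motif. Each match is a description of these letters, and the other promoters searched held none of the motifs in this window.

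Tnf, the founding ligand and a main inflammatory signal of macrophages (chromosome 17, 35199381 to 35202007, minus strand), was read above all in macrophage-like cells. It stood there at 407 CPM (388 to 426) on 1753 UMIs and 434 CPM (416 to 452) on 2240 UMIs. These cells held 69.0% (67.2 to 70.8) and 73.7% (72.1 to 75.2) of all Tnf UMIs, and in both libraries their level lay apart from that of every other named type. The log2 KO/WT was 0.09 (0.00 to 0.18), short of the fold. Next in the WT-labelled library came mast-like cells at 148 CPM (86.1 to 237) on 17 UMIs, whose level was 25.4 CPM (8.26 to 59.4) on 5 UMIs in the KO-labelled library. In the unnamed cluster led by Lyz1 and Retnla, myeloid genes, Tnf stood at 76.8 CPM (60.3 to 96.5) and 121 CPM (103 to 142), with a log2 KO/WT of 0.66 (0.25 to 1.08), past the fold.

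The macrophage-like sub-clusters all carried Tnf. It stood at 530 and 494 CPM in the Trem2 and Gpnmb sub-cluster, at 449 and 515 CPM in the Lyve1 and Cd163 sub-cluster of resident-type markers, and at 308 and 320 CPM in cells led by Tulp3 and Hspa1b. In cells led by Mucl1 and Ltc4s it was 302 CPM (264 to 345) and 414 CPM (374 to 457). Their log2 KO/WT of 0.45 (0.21 to 0.70) was the only one of the 5 sub-clusters whose interval left out 0. After each cell was thinned to 1000 UMIs, 28.4% (25.1 to 31.8) of 726 WT-labelled and 32.9% (29.8 to 36.1) of 882 KO-labelled macrophage-like cells had a Tnf UMI, and 87 and 95 shallower cells were left out. Before thinning the shares were 60.3% and 63.7%, with median depths of 5181 and 5206 UMIs. Tenocyte-like cells, with median depths of 11485 and 11419 UMIs, had thinned shares of 0.24% and 0.00%.

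Endothelial-like cells were the next largest holder of Tnf among the named types, with 309 UMIs (12.2% of all Tnf UMIs) and 240 (7.89%). The levels were 43.4 CPM (38.7 to 48.5) and 35.3 CPM (31.0 to 40.1), with a log2 KO/WT of -0.30 (-0.55 to -0.05). Free RNA from macrophages would carry Tnf together with C1qa, C1qb and C1qc. Scaled by those 3 genes, it would give at most 0.75 and 1.29 CPM of Tnf in endothelial-like cells, and the observed levels were 58.0 and 27.3 times higher. In FAP-like cells Tnf was at 1.78 and 0.71 CPM, against at most 0.84 and 0.80 CPM from free RNA, and the KO-labelled value lay within that range. Endothelial Tnf was uneven, at 54.3 and 42.1 CPM in cells led by Apln and Adm and at 5.94 and 9.20 CPM in cells led by Mbp and Aplnr. Cells led by haemoglobin genes stood at 81.9 CPM (58.2 to 112) and 39.7 CPM (24.6 to 60.6), the one endothelial-like sub-cluster in which Tnf was past the fold.

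Tnfsf10 encodes TRAIL, a ligand that can start apoptosis through death-domain receptors (chromosome 3, 27317028 to 27342427, plus strand). It stood in endothelial-like cells at 54.8 CPM (49.5 to 60.5) on 390 UMIs and 78.5 CPM (72.0 to 85.5) on 534 UMIs, with a log2 KO/WT of 0.52 (0.33 to 0.71), just short of the fold. These cells held 58.6% (54.8 to 62.4) and 59.6% (56.3 to 62.8) of its UMIs, and the Rgs5-led cluster a further 21.8% and 24.2%. FAP-like cells, the source of 28.9% and 35.9% of all UMIs of any gene, had 3 and 8 of Tnfsf10. Macrophage-like cells had 9 and 9, and MuSC-like cells none, where 3 UMIs would have been 1.61 and 2.06 CPM and the exact intervals reach 1.99 and 2.53 CPM. NK-like cells had 6 and 1 UMIs, too few for an order.

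Within endothelial-like cells the level of Tnfsf10 differed among the sub-clusters, and the same one led in both libraries. Cells led by Mbp and Aplnr, the latter a receptor gene of capillary and venous endothelium, stood at 107 CPM (87.7 to 129) and 151 CPM (128 to 178). Arterial cells stood at 53.5 and 82.3 CPM and cells led by Apln and Adm, genes of activated tip-like endothelium, at 45.1 CPM (38.7 to 52.3) and 70.7 CPM (62.1 to 80.2). The log2 KO/WT of these 3 sub-clusters was 0.50 (0.13 to 0.87), 0.62 (0.05 to 1.2) and 0.65 (0.36 to 0.94), and the arterial and the Apln and Adm cells were past the fold. Cells led by Plaur and Adamts4 had a ratio of 0.02 (-0.77 to 0.84). The summed heat-shock and immediate-early genes stood at 8930 and 7989 CPM in cells led by Mbp and Aplnr, with median depths of 3495 and 2853 UMIs. These genes stood at 39034 and 49164 CPM in cells led by Apln and Adm and at 39514 and 48568 CPM in arterial cells. In cells led by Plaur and Adamts4 they stood at 28752 and 35506 CPM. Their part in the differences of Tnfsf10, Tnfrsf10b and Tnf among the sub-clusters was not tested.

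Tnfrsf10b, the receptor for TRAIL (chromosome 14, 69767472 to 69784411, plus strand), was read in the same lineage. Endothelial-like cells stood at 85.4 CPM (78.8 to 92.5) and 103 CPM (95.3 to 111), with a log2 KO/WT of 0.27 (0.11 to 0.43). They held 51.7% and 48.3% of its UMIs and the Rgs5-led cluster 27.7% and 32.4%, whereas macrophage-like cells stood at 0.46 and 0.97 CPM. The Rgs5-led cluster did so on fewer UMIs of any gene, 4352485 and 5247027 against 7116689 and 6800309 in endothelial-like cells. The receptor was therefore not particular to endothelial-like cells. The sub-cluster that led for the ligand was the lowest for the receptor. Tnfrsf10b stood at 30.7 CPM (20.8 to 43.5) and 44.0 CPM (31.8 to 59.2) in cells led by Mbp and Aplnr, and at 272 CPM (231 to 318) and 221 CPM (190 to 255) in cells led by Plaur and Adamts4. Arterial cells were between, at 105 and 103 CPM. Venous cells stood at 75.1 and 138 CPM on 20 and 30 UMIs, past the fold. In thinned endothelial-like cells, 5 of 1092 WT-labelled and 10 of 1100 KO-labelled cells had a UMI of both genes, where the product of their shares gives 5.68 and 8.74 cells.

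**Figure D1:**
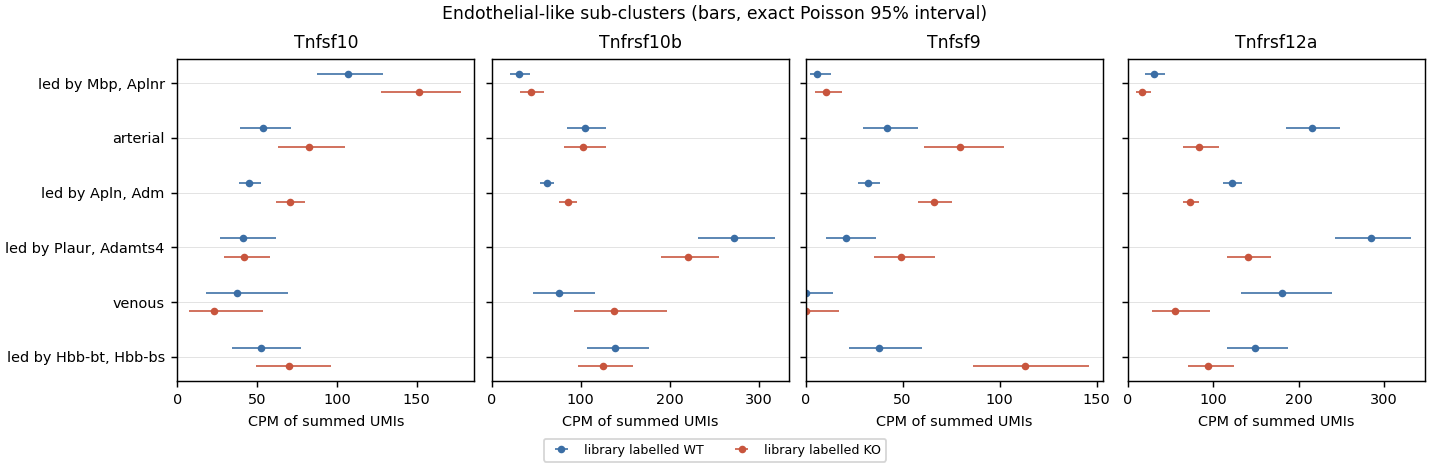
Levels of 4 members in the endothelial-like sub-clusters, in CPM of summed UMIs (horizontal axis), for the WT-labelled (blue) and the KO-labelled library (red); bars are exact Poisson 95% intervals. Tnfsf10 is highest in cells led by Mbp and Aplnr (107 and 151 CPM), Tnfrsf10b in cells led by Plaur and Adamts4 (272 and 221 CPM), and Tnfrsf12a is lower in the KO-labelled library in all 6 sub-clusters drawn. Cells led by Mbp and Aplnr had under 50 Tnfrsf12a UMIs over both libraries.

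Lymphatic endothelial-like cells had 19 and 39 Tnfrsf10b UMIs, or 28.9 CPM (17.4 to 45.1) and 60.1 CPM (42.7 to 82.1), with a log2 KO/WT of 1.06 (0.23 to 1.93), past the fold. Cdh5, Pecam1 and Egfl7 would place 23.4 to 54.5 CPM and 28.5 to 78.4 CPM of endothelial Tnfrsf10b there, but lymphatic endothelium makes those 3 genes itself, so the value does not separate the sources. Tnfrsf22 and Tnfrsf23 are mouse decoy receptors for TRAIL. In endothelial-like cells Tnfrsf22 stood at 8.15 and 9.12 CPM, and Tnfrsf23 at 21.5 and 13.8 CPM with a log2 KO/WT of -0.64 (-1.02 to -0.26). Tnfrsf11b (osteoprotegerin), a soluble decoy that binds TRAIL and RANKL, stood at 9.88 and 39.0 CPM in tenocyte-like cells, with a log2 KO/WT of 1.98 (1.53 to 2.46), and at 4.48 and 3.72 CPM in FAP-like cells.

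Tnfsf12, the gene of TWEAK (chromosome 11, 69686250 to 69695849, minus strand), was spread over many types. Smooth muscle-like cells, with the pericyte markers given above, stood highest at 139 CPM (107 to 178) and 163 CPM (132 to 201), macrophage-like cells at 111 and 113 CPM, endothelial-like cells at 80.2 and 78.1 CPM, FAP-like cells at 74.9 and 73.6 CPM, and MuSC-like cells at 29.6 and 37.7 CPM. Dendritic-like cells had 10 and 9 UMIs. In the WT-labelled library the intervals of smooth muscle-like and macrophage-like cells overlapped. In the 8 types with at least 50 UMIs the log2 KO/WT ran from -0.10 to 0.35, every interval held 0, and none was past the fold. Tnfsf12 overlaps the read-through gene Tnfsfm13 on the same strand and Tnfsf13os on the opposite one, both in the table, and how shared reads were counted is not given in the sources used here, so its counts are uncertain.

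Tnfrsf12a, its receptor (chromosome 17, 23675445 to 23677468, minus strand), was read most in MuSC-like cells. They stood at 1109 CPM (1062 to 1158) on 2060 UMIs and 990 CPM (940 to 1043) on 1444 UMIs, apart from every other named type in both libraries. Tenocyte-like cells followed at 440 and 388 CPM and Schwann-like cells at 413 and 362 CPM, and the intervals of these types overlapped. FAP-like cells stood at 241 CPM (232 to 249) and 190 CPM (184 to 196). After thinning, 61.3% (54.9 to 67.5) and 56.6% (50.1 to 63.0) of MuSC-like cells had a Tnfrsf12a UMI, against 3.70% and 3.57% of T-like cells, and 87.5% and 88.6% of MuSC-like cells before thinning. The thinned shares rest on 243 and 242 MuSC-like cells, with 5 and 4 left out, whose type had median depths of 6450 and 5493 UMIs, and T-like cells had medians of 4238 and 3925 UMIs.

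The log2 KO/WT of Tnfrsf12a was below 0 in all 9 types with at least 50 UMIs, its interval lay below 0 in 8 of them, and 5 were past the fold. Of all genes tested in endothelial-like cells, 8.44% were past the fold in either direction (4.63% higher and 3.8% lower in KO), and the members past it there were Tnfrsf12a and Tnfsf9, 2 of 9. Endothelial-like Tnfrsf12a stood at 138 CPM (129 to 146) and 75.7 CPM (69.3 to 82.6), with a log2 KO/WT of -0.86 (-1.02 to -0.71). All 5 endothelial-like sub-clusters with enough UMIs were past the fold in this direction, from -0.66 in cells led by haemoglobin genes to -1.36 (-1.80 to -0.95) in arterial and -1.71 (-2.76 to -0.78) in venous cells. Cells led by Plaur and Adamts4 had the highest WT-labelled level, 284 CPM (243 to 331), against 140 CPM (116 to 168).

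Lower levels in the KO-labelled library were also read in dendritic-like cells, at 66.1 and 29.6 CPM with a log2 KO/WT of -1.16 (-1.81 to -0.53). Lymphatic endothelial-like cells stood at 245 and 131 CPM (-0.90, -1.30 to -0.51), macrophage-like cells at 89.4 and 56.9 CPM (-0.65, -0.87 to -0.43), and smooth muscle-like cells at 124 and 80.8 CPM (-0.62, -1.22 to -0.03). The 3 types with the highest levels were short of the fold, at -0.16 (-0.26 to -0.07) in MuSC-like, -0.18 (-0.28 to -0.09) in tenocyte-like and -0.19 (-0.38 to 0.01) in Schwann-like cells. FAP-like cells had -0.34 (-0.41 to -0.27), and all 7 of their sub-clusters had a ratio below 0. Of 4 macrophage-like sub-clusters with enough UMIs, 3 had a ratio below 0 and 2 were past the fold, while cells led by Mucl1 and Ltc4s stood at 46.9 and 55.3 CPM (0.24, -0.41 to 0.91). The median log2 KO/WT over all genes tested was -0.06 in FAP-like, 0.04 in endothelial-like, -0.04 in macrophage-like and 0.02 in MuSC-like cells.

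**Figure D2:**
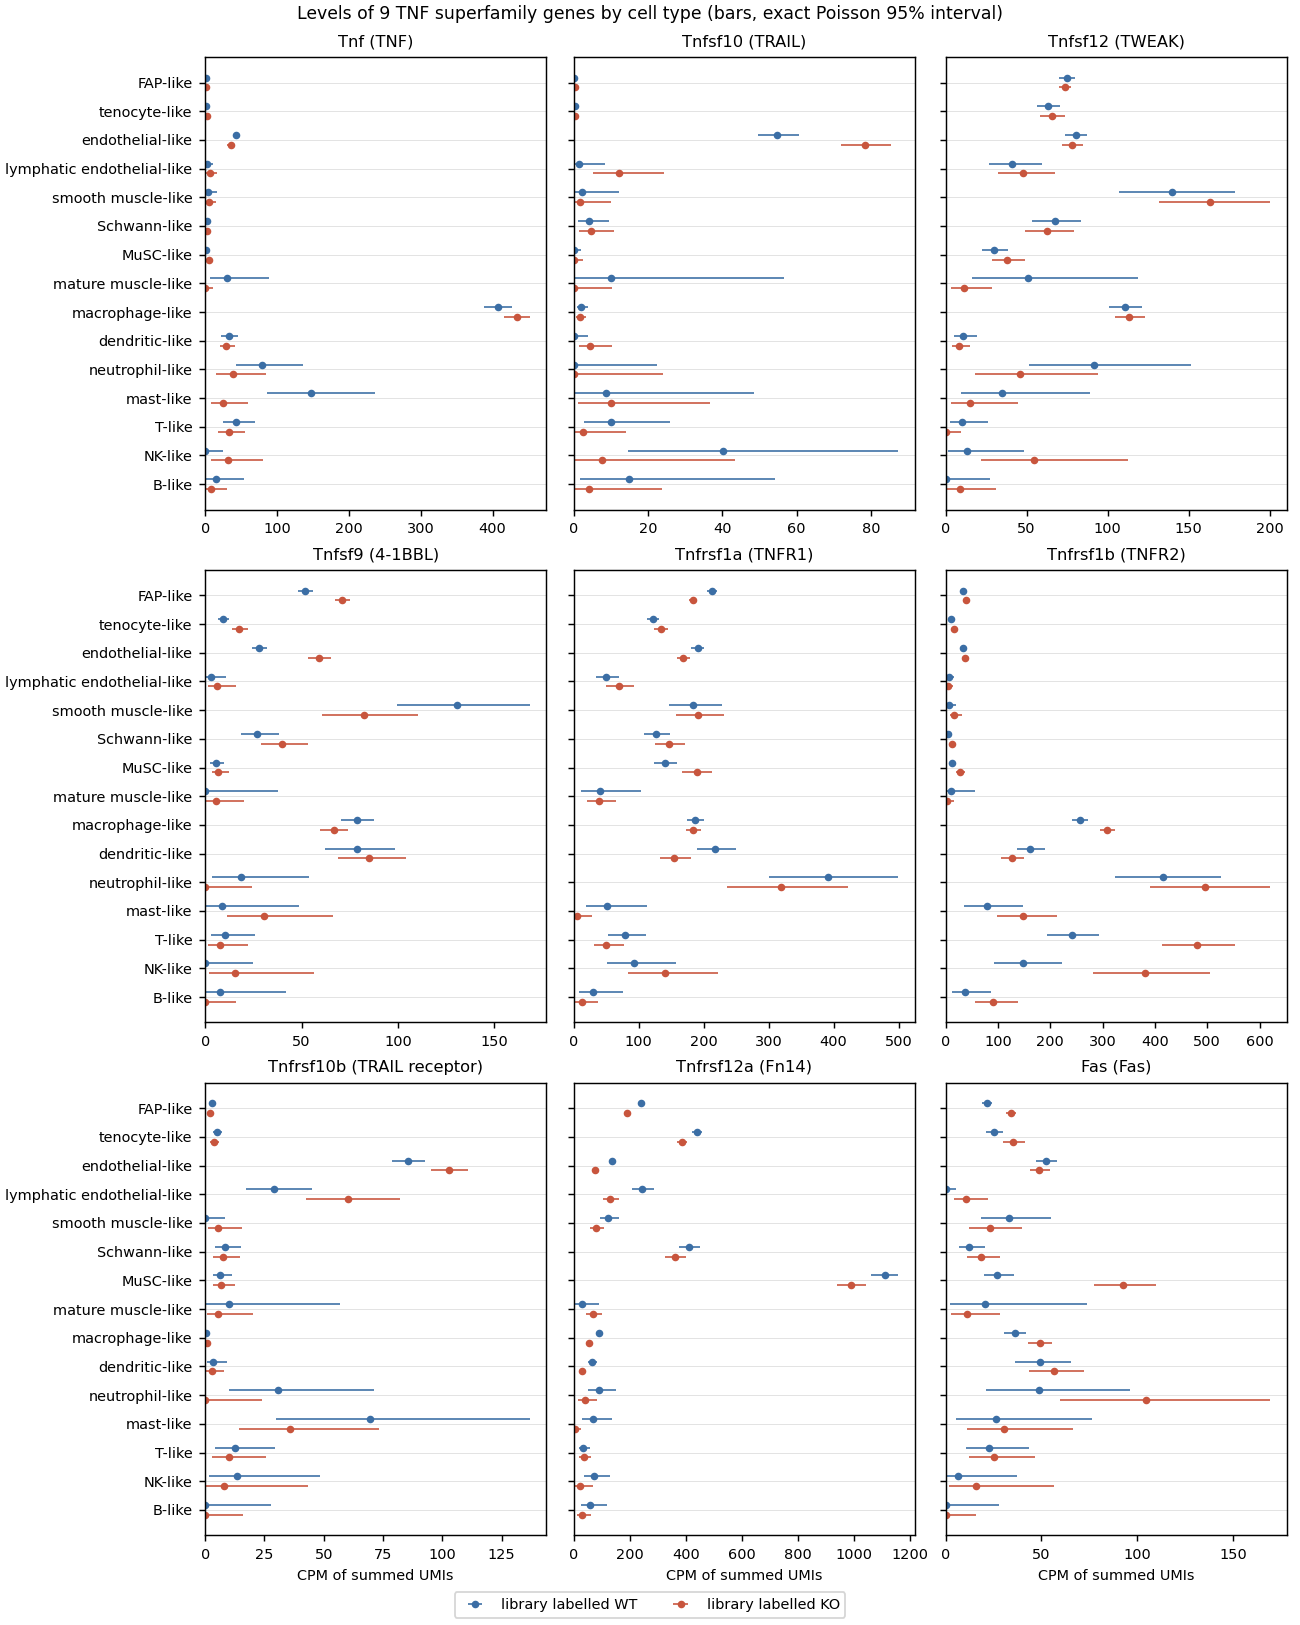
Levels of the 9 members in the 15 named cell types, in CPM of summed UMIs (horizontal axes, each with its own range), for the WT-labelled (blue) and the KO-labelled library (red); bars are exact Poisson 95% intervals. Tnf stands out in macrophage-like cells (407 and 434 CPM), Tnfsf10 and Tnfrsf10b in endothelial-like cells and Tnfrsf12a in MuSC-like cells (1109 and 990 CPM), while Tnfsf12 and Tnfrsf1a are spread over many types. Unnamed clusters, among them the Rgs5-led one that also carried Tnfsf10 and Tnfrsf10b, are not drawn.

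Tnfsf9 encodes the 4-1BB ligand, a costimulatory signal for lymphocytes that is also made by myeloid and stromal cells (chromosome 17, 57105325 to 57107757, plus strand). It overlaps the antisense gene Gm11110, also in the table. FAP-like cells held the largest part of its UMIs, 37.2% and 44.8%. The level was 131 CPM (99.4 to 168) and 82.6 CPM (60.5 to 110) in smooth muscle-like cells, 78.7 and 85.1 CPM in dendritic-like cells, 78.7 and 66.6 CPM in macrophage-like cells, and 52.0 CPM (48.1 to 56.0) and 71.2 CPM (67.4 to 75.1) in FAP-like cells. In the WT-labelled library smooth muscle-like cells lay apart from the rest, and in the KO-labelled one these 4 types led with overlapping neighbours.

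Endothelial-like cells had the largest ratio of Tnfsf9 among types with at least 50 UMIs, with 27.8 CPM (24.1 to 32.0) on 198 UMIs and 59.1 CPM (53.5 to 65.2) on 402 UMIs, and a log2 KO/WT of 1.09 (0.84 to 1.34). All 4 endothelial-like sub-clusters with at least 50 UMIs were past the fold in this direction, from 0.93 to 1.58. Tenocyte-like cells stood at 9.30 and 17.6 CPM (0.92, 0.39 to 1.47), and FAP-like cells had 0.45 (0.32 to 0.59). Smooth muscle-like cells went the other way, with -0.66 (-1.25 to -0.08), beside their 120 and 18255 CPM of red-cell markers, whose part was not tested. The Lyz1-led cluster stood at 26.0 and 45.9 CPM (0.82, 0.12 to 1.56). The macrophage-like sub-clusters differed in sign. The Trem2 and Gpnmb cells stood at 92.6 and 57.0 CPM (-0.70, -1.07 to -0.33), and the cells led by Tulp3 and Hspa1b at 53.1 and 81.9 CPM (0.62, 0.16 to 1.10). The summed heat-shock and immediate-early genes were at 14968 and 13874 CPM in the former and 39621 and 51192 CPM in the latter. Their part in these ratios was not tested.

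Tnfrsf9, the 4-1BB receptor, had 32 of its 99 WT-labelled and 30 of its 208 KO-labelled UMIs in NK-like cells, 27 and 71 in T-like, 20 and 44 in mast-like and 10 and 26 in dendritic-like cells. It stood at 214 and 234 CPM in NK-like cells, 174 and 224 CPM in mast-like cells, and 68.4 and 179 CPM in T-like cells, where its log2 KO/WT was 1.39 (0.73 to 2.09). WT-labelled T-like cells held more of the sub-cluster led by Cd163l1 and Trdc, 41 of 82 against 15 of 85, and the part of this mix in the ratios of T-like cells was not tested. In thinned WT-labelled macrophage-like cells, 11.7% of the 206 cells with a Tnf UMI also had a Tnfsf9 UMI, against 4.62% of the other cells. In KO-labelled ones the shares were 6.21% of 290 cells and 5.41%.

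**Figure D3:**
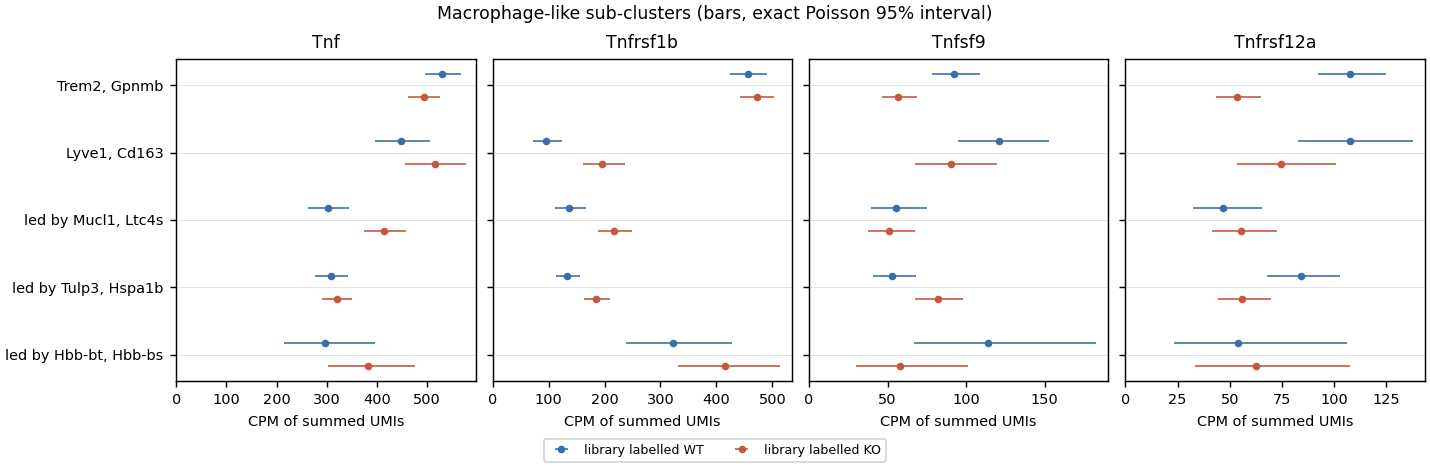
Levels of 4 members in the macrophage-like sub-clusters, in CPM of summed UMIs (horizontal axis), for the WT-labelled (blue) and the KO-labelled library (red); bars are exact Poisson 95% intervals. Tnf is read in every sub-cluster, and Tnfrsf1b is higher in the KO-labelled library in the Lyve1 and Cd163 cells (95.6 and 196 CPM), while in the Trem2 and Gpnmb cells its intervals overlap (457 and 472 CPM).

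Tnfrsf1a, the widely expressed TNF receptor with a death domain (chromosome 6, 125349362 to 125362484, plus strand), was found in every named type. Neutrophil-like cells, whose neutrophil and FAP markers differed between the libraries as given above, led at 391 CPM (301 to 500) and 320 CPM (237 to 423). FAP-like cells stood at 213 and 184 CPM, endothelial-like cells at 191 and 169 CPM, macrophage-like cells at 187 and 184 CPM and MuSC-like cells at 141 and 189 CPM, while B-like cells had 4 and 3 UMIs. The log2 KO/WT was -0.21 (-0.29 to -0.14) in FAP-like, -0.17 (-0.29 to -0.06) in endothelial-like, -0.02 (-0.16 to 0.12) in macrophage-like and 0.43 (0.18 to 0.68) in MuSC-like cells, all short of the fold. Its highest endothelial level lay in the cells led by Plaur and Adamts4, at 408 CPM (358 to 464) and 273 CPM (239 to 311). The same sub-cluster led for Tnfrsf10b in both libraries.

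Tnfrsf1b, the TNF receptor of leukocytes and some endothelium (chromosome 4, 145213463 to 145246870, minus strand), had 41.6% and 41.4% of its UMIs in macrophage-like cells. Its level was 416 and 496 CPM in neutrophil-like cells, with the same difference in markers, 256 CPM (241 to 272) and 309 CPM (294 to 325) in macrophage-like cells, and 162 and 126 CPM in dendritic-like cells. T-like cells stood at 240 CPM (195 to 294) and 480 CPM (414 to 553), with an interval of the log2 KO/WT from 0.63 to 1.37, and NK-like cells at 147 and 382 CPM (1.38, 0.62 to 2.17). The T-like cells differed in their mix of sub-clusters, as given for Tnfrsf9, and tenocyte markers in them stood at 651 and 27.8 CPM, whose part was not tested. The NK-like cells, 32 and 29 in number, had 4616 and 7753 CPM of NK markers and 702 and 3904 CPM of FAP markers. Their endothelial markers stood at 515 and 70.1 CPM and their macrophage markers at 40.1 and 179 CPM. The part of these differences in the NK-like ratio was not tested. Among all genes tested, 21.5% were past the fold in T-like cells, where both members tested were (the other, Tnfrsf1a, stood at 78.5 and 50.5 CPM on 31 and 20 UMIs). In NK-like cells the share was 24.6%, and 1 member could be tested. Tenocyte-like cells had 10.3 and 15.4 CPM of Tnfrsf1b (0.59, 0.05 to 1.13).

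The macrophage-like ratio of Tnfrsf1b was 0.27 (0.16 to 0.38), and those of all 5 sub-clusters were above 0. The Trem2 and Gpnmb cells, which stood highest, were at 457 CPM (424 to 491) and 472 CPM (442 to 504). The Lyve1 and Cd163 cells stood at 95.6 CPM (72.2 to 124) and 196 CPM (161 to 236), with a log2 KO/WT of 1.04 (0.56 to 1.53), and the cells led by Mucl1 and Ltc4s at 137 and 217 CPM (0.67, 0.31 to 1.03). In thinned WT-labelled macrophage-like cells, 23.8% of cells with a Tnf UMI and 16.5% of the others had a Tnfrsf1b UMI, and in KO-labelled ones 27.9% and 23.0%.

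Fas is the receptor of Fas ligand and the best-known trigger of death-receptor apoptosis (chromosome 19, 34290666 to 34327772, plus strand), and it overlaps Gm27818 on the same strand. It stood at 52.3 CPM (47.1 to 57.9) and 49.0 CPM (43.8 to 54.5) in endothelial-like cells, with a log2 KO/WT of -0.09 (-0.31 to 0.12). In MuSC-like and FAP-like cells it was past the fold. MuSC-like cells stood at 26.9 CPM (20 to 35.5) on 50 UMIs and 92.6 CPM (77.6 to 110) on 135 UMIs, with a log2 KO/WT of 1.78 (1.30 to 2.28). In the WT-labelled library they ranked below endothelial-, dendritic-, neutrophil-, macrophage- and smooth muscle-like cells. In the KO-labelled one only neutrophil-like cells ranked higher, at 104 CPM (59.7 to 170) on 16 UMIs with an overlapping interval, and the next type, dendritic-like cells, lay apart at 56.5 CPM (43.4 to 72.2). After thinning, 3.29% (1.43 to 6.38) and 7.85% (4.79 to 12.0) of MuSC-like cells had a Fas UMI (14.5% and 33.3% before). None of 40 and 56 thinned B-like cells did, where 3 cells would be 7.50% and 5.36%, at median depths of 2681 and 2808 UMIs. This limits cells with a UMI, not cells that express Fas.

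FAP-like cells stood at 21.4 CPM (18.9 to 24.1) and 34.1 CPM (31.5 to 36.9) for Fas, with a log2 KO/WT of 0.67 (0.47 to 0.88). Of their 6 sub-clusters with at least 50 UMIs, 4 were past the fold in this direction. The Clu and Cyp2f2 cells stood at 16.4 and 37.6 CPM (0.59 to 1.85 on the log2 scale), the Hsd11b1 and Mme cells at 13.3 and 26.4 CPM (0.99, 0.29 to 1.75), the Ifi205 and Fgl2 cells at 24.2 and 44.6 CPM (0.88, 0.51 to 1.27), and the Sfrp4 and Gdf10 cells at 27.8 and 47.4 CPM (0.77, 0.12 to 1.44). The Pi16 and Dpp4 cells, a stem-like fibroblast pool of the fascia, stood at 22.9 and 20.1 CPM (-0.18, -0.70 to 0.33). The summed level of the dissociation genes was 19459 and 22620 CPM in the Clu and Cyp2f2 cells, 34681 and 66420 CPM in the Hsd11b1 and Mme cells, and 21219 and 20650 CPM in the Sfrp4 and Gdf10 cells. It was 13888 and 17221 CPM in the Ifi205 and Fgl2 cells and 12478 and 17346 CPM in the Pi16 and Dpp4 cells. Cells led by Dlk1 and Tnc, where Fas was short of the fold, stood at 19486 and 25455 CPM of these genes. The 10 leading genes of the Hsd11b1 and Mme cells included Hspa1a, Hspa1b, Fos, Jun and Ier2 of this list, and Mme was not among them. In the Trem2 and Gpnmb macrophage-like cells Fas stood at 45.4 and 74.7 CPM (0.72, 0.30 to 1.15). Fasl, the ligand gene, was read mostly in NK-like cells, at 154 and 140 CPM, and T-like cells, at 55.7 and 93.4 CPM. NK-like cells held 23 and T-like cells 22 of 56 WT-labelled Fasl UMIs, and 18 and 37 of 71 KO-labelled ones.

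Of all genes tested, 9.72% were past the fold in FAP-like cells (3.46% higher and 6.26% lower in KO), against 1 of 7 members tested (Fas). In MuSC-like cells 22.9% of all genes were past it (13.1% higher and 9.84% lower), against 2 of 5 members (Fas, and Tnfrsf1b at 11.3 and 26.7 CPM on 21 and 39 UMIs). In macrophage-like cells the share of all genes was 11.4% (4.24% higher and 7.21% lower), and 1 of 7 members (Tnfrsf12a) was past the fold. The share was 11.8% in tenocyte-like cells with 2 of 6 members past it, 17.4% in dendritic-like cells with 1 of 6, 18.4% in smooth muscle-like cells with 2 of 4, and 15.4% in lymphatic endothelial-like cells with 2 of 4. It was 12.6% in Schwann-like and 34.9% in neutrophil-like cells, with none of 4 and none of 2 members past it. Among the unnamed clusters it was 9.19% in the Rgs5-led one with 1 of 9 members past it, 15.5% in the Igha-led one with 1 of 6, 15.5% in the Gal-led one with 2 of 5, 22.6% in the Top2a-led one with 2 of 5, and 16.8% in the Lyz1-led one with 2 of 7 (Tnf and Tnfsf9). Tnfrsf12a was past the fold, lower in KO, in each of these but the last. Over all cells together the share was 8.79%, and none of the 9 members was past it.

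Among the endothelial-like sub-clusters, 9.36% of all genes were past the fold in cells led by Apln and Adm and 14.5% in arterial cells, with 3 of 9 members in each. The share was 14.9% in haemoglobin-led cells with 3 of 7 members past it, 21.7% in cells led by Plaur and Adamts4 with 2 of 8, 19.6% in venous cells with 2 of 3, and 9.9% in cells led by Mbp and Aplnr with none of 6. Among the FAP-like sub-clusters it was 9.83% (Clu and Cyp2f2), 14.1% (Hsd11b1 and Mme) and 13.6% (Sfrp4 and Gdf10), with 2 of 6 members past it in each. It was 19% in the Ifi205 and Fgl2 cells with 1 of 6, 9.37% in the Pi16 and Dpp4 cells and 12.2% in cells led by Dlk1 and Tnc with none of 6, and 19.2% in cells led by Myl1 and Ckm with 1 of 3. Among the macrophage-like sub-clusters it was 15.7% in the Lyve1 and Cd163 cells and 17.1% in cells led by Mucl1 and Ltc4s, where Tnfrsf1b was the 1 member of 6 past it. It was 15.4% in the Trem2 and Gpnmb cells and 14.6% in cells led by Tulp3 and Hspa1b, with 3 of 7 members each, and 21.2% in haemoglobin-led cells with none of 2.

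**Figure D4:**
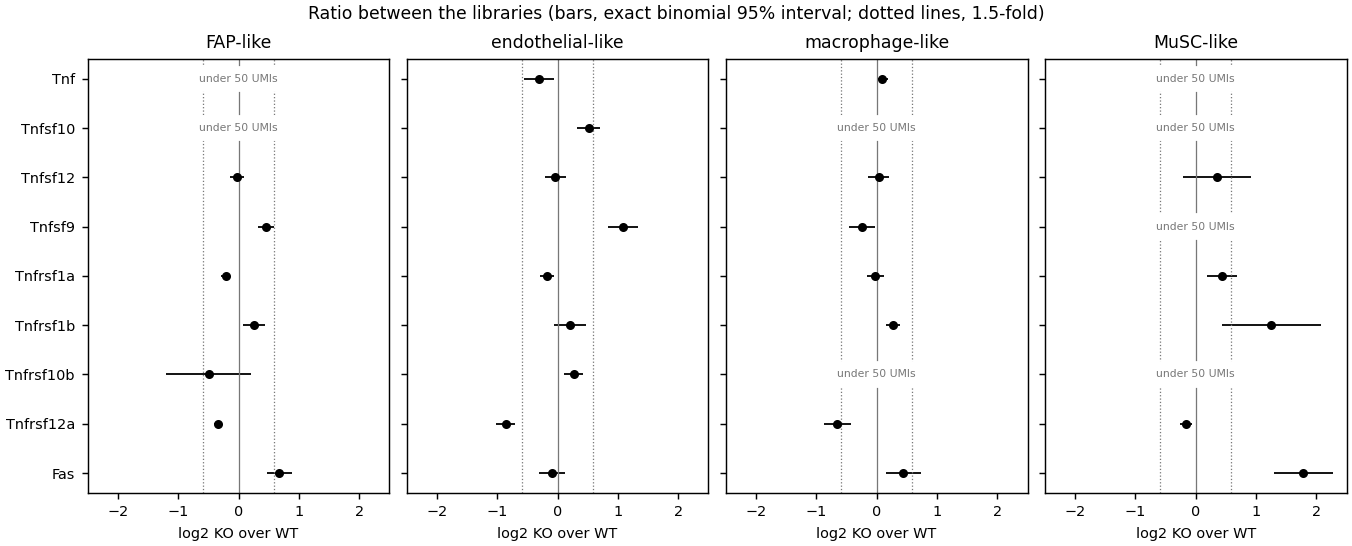
Log2 ratio of KO over WT (horizontal axis) of each member in 4 cell types; bars are exact binomial 95% intervals, dotted lines mark 1.5-fold, and members under 50 UMIs are not drawn. Tnfrsf12a lies below 0 in all 4 types, Tnfsf9 is past the line in endothelial-like cells (1.09), and Fas in FAP-like (0.67) and MuSC-like cells (1.78).

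Members not tested had under 50 UMIs. They were Tnf and Tnfsf10 in FAP-like cells, Tnfsf10 and Tnfrsf10b in macrophage-like cells, and Tnf, Tnfsf10, Tnfsf9 and Tnfrsf10b in MuSC-like cells.

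Downstream of the receptors, 20 genes known as NF-kB targets or feedback genes of TNF signalling were read against the same fold. In FAP-like cells 12 of 20 were past it upward and none downward, with a median log2 KO/WT of 0.61 against -0.06 over all genes tested. Of all genes tested there, 3.46% were past it upward and 6.26% downward. Il6, a cytokine, stood at 186 and 616 CPM (1.73, 1.66 to 1.79), Tnfaip3, the gene of the NF-kB inhibitor A20, at 7.72 and 18.3 CPM (1.24, 0.92 to 1.58), and Sele, an endothelial adhesion gene, at 0.23 and 2.63 CPM on 3 and 48 UMIs (3.50, 1.87 to 5.83). In MuSC-like cells 13 of 19 were past it upward and none downward, with a median of 1.0 against 0.02 over all genes. Of all genes tested in MuSC-like cells, 13.1% were past it upward and 9.84% downward. There Cxcl2, a neutrophil chemokine, stood at 26.9 and 417 CPM (3.95, 3.54 to 4.40), and Nfkbie, an inhibitor of NF-kB, at 15.1 and 54.9 CPM (1.86, 1.23 to 2.54). Not every gene of the list was higher. In MuSC-like cells Nfkbia, another NF-kB inhibitor, was at 426 and 326 CPM (-0.39, -0.56 to -0.22), and Il6 at 22.6 and 19.9 CPM (-0.19, -0.92 to 0.53). The log2 KO/WT of Nfkbia was 0.10 in FAP-like, -0.16 in endothelial-like and -0.35 in macrophage-like cells, all short of the fold.

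The same list had 5 of 20 genes past the fold upward in endothelial-like cells, with a median of 0.36, and 2 of 19 upward and 1 downward in macrophage-like cells, with a median of 0.28. The share of all genes past it was 4.63% upward and 3.8% downward in endothelial-like cells, and 4.24% and 7.21% in macrophage-like cells. Il6 stood at 33.3 and 111 CPM in endothelial-like cells (1.74, 1.53 to 1.96). The gene that went downward in macrophage-like cells was Cxcl1, a neutrophil chemokine, at 648 and 237 CPM (-1.45, -1.55 to -1.35). Of the 16 heat-shock and immediate-early genes, 7 were past the fold upward in FAP-like, 11 in MuSC-like and 2 in endothelial-like cells, and none downward. In macrophage-like cells 2 were past it upward and 2 downward. The shares of all genes in these types are those given above for the NF-kB targets. The part of dissociation in the ratios of the NF-kB targets was not tested.

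Of the 19 genes of death signalling, 18 were tested in FAP-like cells, with 1 past the fold upward and 2 downward. Counts were 1 upward and 1 downward of 18 in endothelial-like cells, 1 upward and 2 downward of 17 in macrophage-like cells, and 4 upward of 9 in MuSC-like cells, and the list's medians were 0.13, 0.03, 0.02 and 0.37 in the same order of types. The share of all genes past it in either direction was 9.72%, 8.44%, 11.4% and 22.9% in that order. Birc3 (cIAP2), a ubiquitin ligase that holds back caspase-8 and is itself an NF-kB target, was past it upward in all 4 types, at 47.5 and 88.5 CPM in FAP-like cells (0.90, 0.76 to 1.04) and 18.3 and 83.7 CPM in MuSC-like cells (2.19, 1.63 to 2.79). Ripk3, the necroptosis kinase, was past it downward in FAP-like (9.03 and 5.69 CPM), endothelial-like (67.7 and 44.4 CPM) and macrophage-like cells (19.3 and 12.0 CPM). Daxx, a Fas-binding and chromatin protein, stood at 26.4 and 14.8 CPM in FAP-like cells (-0.84, -1.07 to -0.60) and at 21.4 and 13.2 CPM in macrophage-like cells (-0.70, -1.17 to -0.23). Xiap, a caspase inhibitor, stood at 46.8 and 83.0 CPM in MuSC-like cells (0.83, 0.42 to 1.24).

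**Figure D5:**
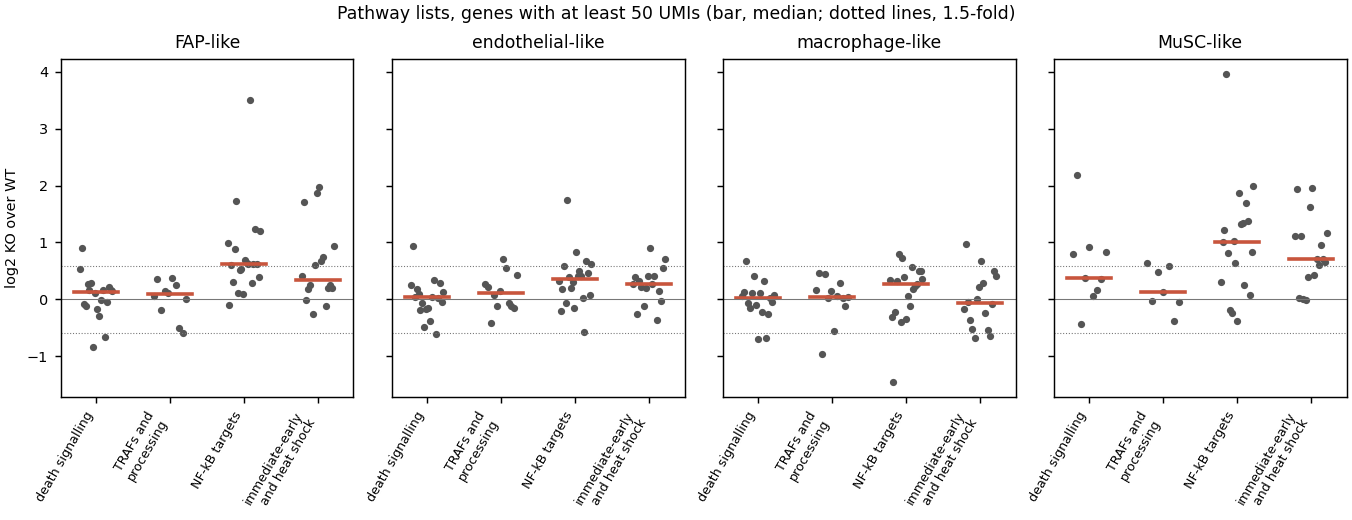
Log2 ratios of KO over WT (vertical axis) of the genes of 4 lists in 4 cell types, for genes with at least 50 UMIs over both libraries; each point is a gene, the red bar is the list's median and dotted lines mark 1.5-fold. The NF-kB targets have medians of 0.61 in FAP-like and 1.0 in MuSC-like cells, beside 0.34 and 0.71 for immediate-early and heat-shock genes.

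Among TRAF adaptors and the proteases and regulators that shed TNF, 1 gene was past the fold in each of the 4 types, of 10 tested in FAP-like, 12 in endothelial-like, 12 in macrophage-like and 7 in MuSC-like cells, where the share of all genes was 9.72%, 8.44%, 11.4% and 22.9%. Traf5 stood at 12.6 and 8.32 CPM in FAP-like cells (-0.60, -0.93 to -0.27), Traf1 at 3.51 and 5.74 CPM in endothelial-like cells (0.71, -0.05 to 1.49), and Adam10, a surface protease, at 44.1 and 68.6 CPM in MuSC-like cells (0.64, 0.20 to 1.07). In macrophage-like cells Rhbdf1, a partner of the TNF-shedding protease ADAM17, was at 12.8 and 6.58 CPM (-0.96, -1.62 to -0.31). Of the other receptors of the family, 1 was past the fold upward and 1 downward of 6 tested in FAP-like cells, 1 downward of 7 in endothelial-like cells (Tnfrsf23), 1 upward of 7 in macrophage-like cells and none of 3 in MuSC-like cells. Macrophage-like Cd40, which relays signals from activated T cells, was at 55.5 and 96.4 CPM (0.80, 0.57 to 1.03). In FAP-like cells Eda2r stood at 4.86 and 7.71 CPM (0.67, 0.23 to 1.12), and Relt at 3.09 and 1.97 CPM (-0.65, -1.34 to 0.04). Of the other ligands, 2 could be tested in FAP-like and 2 in macrophage-like cells, and none was past the fold. Lta, a ligand gene next to Tnf, had 10 and 15 UMIs over all cells.

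The genes whose levels followed those of a member most closely were ranked by Pearson r of log2(CPM + 10) over the 15 named types in both libraries, which gives 30 points that share libraries, among 12205 genes with at least 200 UMIs. For Tnfrsf1b they were Cd48, Itgb2 and Fermt3 (r = 0.94, 0.93 and 0.93), all leukocyte genes. For Tnfrsf10b they were Gata2, Mycn and Enpp4 (0.92, 0.85 and 0.81), for Tnfsf10 Dach1, Gbp9 and Slc26a10 (0.86, 0.85 and 0.84), and for Tnf Abcg3, Atp13a2 and Cd33 (0.84, 0.83 and 0.81). For Tnfsf12 the closest was Camk1 (0.90), for Tnfrsf12a Ptk7 (0.87), for Tnfrsf1a Bach1 (0.81) and for Tnfsf9 Mfhas1 (0.77). For Fas they were AC160336.1 (0.70) and Txnrd1 (0.69). With a pseudocount of 1 the first gene was another for 5 of the 9 members, Cysltr1 for Tnf, Gbp9 for Tnfsf10, Selplg for Tnfrsf1b, Gk5 for Tnfrsf12a and Tnfrsf21 for Fas.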

How the data were processed

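The table is deposited by the authors as natural log values, each the log of 1 plus a gene's UMIs scaled to 10000 per cell, for 13432 cells. Per the methods and labels it was made from 10x 5′ libraries with Cell Ranger (2.1.1 in the submitters' processing notes, another version in the methods), mm10 and Seurat, after removal of doublets and of cells over 10% mitochondrial reads. The methods state more cells than the table holds, and its barcode suffixes give the library. Undoing the log gave UMIs, 99.9995% of values within 0.05 UMI of a whole number, and on 500 simulated cells the step recovered every count.

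Cells were clustered (2000 variable genes without 77 TNF superfamily and pathway genes, 30 principal components, a Harmony-type correction across libraries written here, Louvain at resolution 0.8, with sub-clusters at 0.5) with numpy 2.4.6, scikit-learn 1.9.0 and igraph 0.11.9. Clusters were named from fixed markers. The rules that leave a cluster unnamed (markers under 2-fold, leading genes or at least 25% of the score from another lineage, low depth) were set after the clusters were seen. Doublets were kept, and scanpy 1.11.5 (Scrublet) marked 101 and 109 cells. Sub-clusters with at least 2 markers of another lineage among their 10 leading genes and a log2 fold of at least 2 over these markers (124 and 134 cells) were left out.

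Intervals are exact at 95%, for counting error only. Named are the 9 members, their partners, for other lists up to 3 genes per list, type and direction past 1.5-fold in FAP-, endothelial-, macrophage- and MuSC-like cells, and the genes most like a member. Nfkbia in these types and Il6 in MuSC-like cells are named outside this rule. Partners other than Tnfrsf9, Fasl, Lta, Tnfrsf22, Tnfrsf23 and Tnfrsf11b were not printed unless past the fold. Members and lists were chosen with earlier results of these data known. Gene positions are from GENCODE vM21 and promoters from RefSeq, GRCm38.p6. Alternatives were the scaling, depth, doublets, integration, resolution, variable genes, fold and count minimum. No column of another series was used.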

Additional observations from a re-analysis of the deposited data

Results flagged for a closer look

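Tnfsf9 had ratios of opposite sign in different cell types, each past 1.5-fold with at least 50 UMIs. The log2 ratio of KO over WT was 1.09 in endothelial-like and 0.92 in tenocyte-like cells and -0.66 in smooth muscle-like cells, which carried pericyte markers too and had 120 and 18255 CPM of red-cell markers (WT, then KO). With 1 library per genotype the difference between the types was not tested.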

How the results depend on the processing

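Of 28 member ratios in FAP-, endothelial-, macrophage- and MuSC-like cells, 6 were past 1.5-fold, 3 with a fold of 2 and 10 of 35 with no count minimum. Shares of all genes were computed only under the main settings, at 1.5-fold with at least 50 UMIs. The counts under other settings here, of members and of NF-kB targets, therefore have no such share beside them and cannot be set against one. The highest type of a member was kept by at least 7 of 9 members under every alternative. NF-kB targets higher in KO numbered 4 (FAP-like), 1 (endothelial-like) and 0 (macrophage-like) with a fold of 2, against 12, 5 and 2. In endothelial-like cells they numbered 2 with per-cell UMIs per 10000 averaged over cells and 3 with each cell thinned to 1000 UMIs, and thinning gave 6 in MuSC-like cells against 13. The share of Tnf UMIs in macrophage-like cells (WT, then KO) was 71.3% and 76.3% without called doublets, 73.1% and 85.6% after thinning and 71.0% and 77.1% with two-lineage sub-clusters kept (this setting was added after the data were seen). The endothelial share of Tnfsf10 was 64.7% and 64.6% without integration and 79.2% (KO) after thinning. Observed over highest expected Tnf in endothelial-like cells was 32.7 and 11.6 after thinning, 41.5 and 20.6 without integration, 41.1 and 22.1 with two-lineage sub-clusters kept and 21.6 (KO) at resolution 0.4. The causes were not tested. Under 9 or 10 alternatives, the ratios of Fas in FAP-like (0.63 to 0.80) and MuSC-like cells (1.69 to 1.78), Tnfsf9 (1.01 to 1.25) and Tnfrsf12a (-0.99 to -0.78) in endothelial-like cells, and Tnfrsf1b in MuSC-like cells (1.14 to 1.39) stayed past the fold. Tnfrsf12a in macrophage-like cells did so under 9 of 10 (-1.0 to -0.37) and Tnfsf10 in endothelial-like cells under 2 of 10 (0.50 to 0.71). Tnfrsf10b in endothelial-like cells ran from -0.25 to 0.36 and kept its sign under 8 of 10. No paired analysis was possible because each genotype had 1 library, and for the same reason no replicate could be left out.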
